A study of Homo sapiens with 6 samples.

Results

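Nuclear genes for the late steps of respiration were followed in NCI-H69 cells, an established human small cell lung cancer line of neuroendocrine type, after treatment with GNF5, an allosteric inhibitor of the ABL kinases. The genes are those of complex III, complex IV (cytochrome c oxidase, COX) and complex V (ATP synthase), with cytochrome c and the assembly factors that carry COX names. They were chosen by symbol: names that begin with UQCR or ATP5, the names CYC1 and CYCS, and certain COX names. A COX name had to be COX and a number, then optional letters, then optional digits, so COX7A2L was not a member. Of 60671 genes in each file, 161 matched, and 103 pseudogene names and 3 hyphenated names (1 antisense RNA, 1 divergent transcript and 1 readthrough of ATP5MF into PTCD1) were set aside. The remaining 55 members are 10 complex III subunits, 1 gene for cytochrome c, 16 complex IV subunits, 9 COX assembly factors, 18 complex V subunits and 1 inhibitor of complex V.

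Cells received the vehicle DMSO (3 libraries) or GNF5 at 20 µM (3 libraries), all labelled WT and all taken at 48 h. The treatment protocol writes the GNF5 dose in millimolar where the sample label has micromolar, and the conflict was not settled here. Every library came from this 1 cell line, and whether replicates were separate cultures is not stated, so p-values measure the spread between these libraries, which may be technical. The libraries held from 46148701 to 60697602 counts. The neuroendocrine markers CHGA, SYP, INSM1, NCAM1 and DLL3 were all expressed, with summed levels of 2349.7 to 2422 CPM (counts as a share of the library's scaled total) in the DMSO libraries and 2643 to 2747 CPM in the GNF5 libraries. The 4 leukocyte markers summed to at most 1.80 CPM, with CD3E at 0 counts, and the 4 lung epithelium markers to at most 3.66 CPM, with SFTPB at 0 counts. The 4 fibroblast markers summed to 120.0 to 125 CPM with DMSO and 64.7 to 71.9 CPM with GNF5, nearly all from COL1A2, and the 4 muscle markers to 7.46 to 8.11 and 4.89 to 5.02 CPM. Their part in the results was not tested.

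Complex III passes electrons from ubiquinol to cytochrome c, the small soluble carrier CYCS, and pumps protons as it does so. Complex IV takes the electrons from cytochrome c and reduces oxygen to water, and complex V lets the protons flow back through a ring in the inner membrane and uses the rotation to make ATP. The catalytic heart of complex IV, cytochrome b of complex III and the proton channel of complex V are encoded by mitochondrial DNA, while every member here is made in the cytosol from a nuclear gene and imported. COX assembly factors do not stay in the finished enzyme but supply its heme and copper and guide its core subunits.

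RNA of most members, all of them nuclear genes, was lower with GNF5. Of the 55 members 50 had enough counts to be tested, and of these 41 were called, 37 lower and 4 higher (edgeR's quasi-likelihood test, Benjamini-Hochberg adjusted p under 0.05). Among all 20734 genes tested 61.6% were called, 30.7% lower and 31.0% higher. The median log2 fold change (GNF5 against DMSO) was -0.35 for the members and 0.01 for all tested genes. The members' share of all counts was 0.760%, 0.707% and 0.739% in the DMSO libraries and 0.588%, 0.597% and 0.604% in the GNF5 libraries, so the groups did not overlap. The groups did not overlap in 41 of the 50 tested members (82.0%), against 65.9% of all tested genes. Among tested genes with a coding sequence that are not members, the groups did not overlap in 72.9% of those under 500 coding bases. For longer ones this share was 73.5%. Of these shorter and longer genes 71.4% and 70.2% were called, against 82.0% of the tested members. In cells sequenced in bulk, fewer cells of a type and less RNA per cell cannot be told apart, and a CPM value is a share of the library, not an amount per cell. RNA was measured here, not protein or respiration. Throughout, a log2 fold change is followed by its SE, a mean CPM or TPM by its SD (n = 3), and a rise or fall given as a bare number is on the log2 scale.

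The falls were small for most members. Of the 50 tested members 18 fell by at least 0.5 on the log2 scale, against 15.0% of all tested genes, and 1, COX20, changed at least 2-fold, against 11.6%. Tested against a 1.5-fold change rather than no change, 8 members were lower and 0 higher, where 7.52% of all tested genes were lower and 5.98% higher. These 8 were COX20, COX16, COX17, UQCR10, COX7A2, COX7C, ATP5F1E and ATP5MF.

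**Figure D1:**
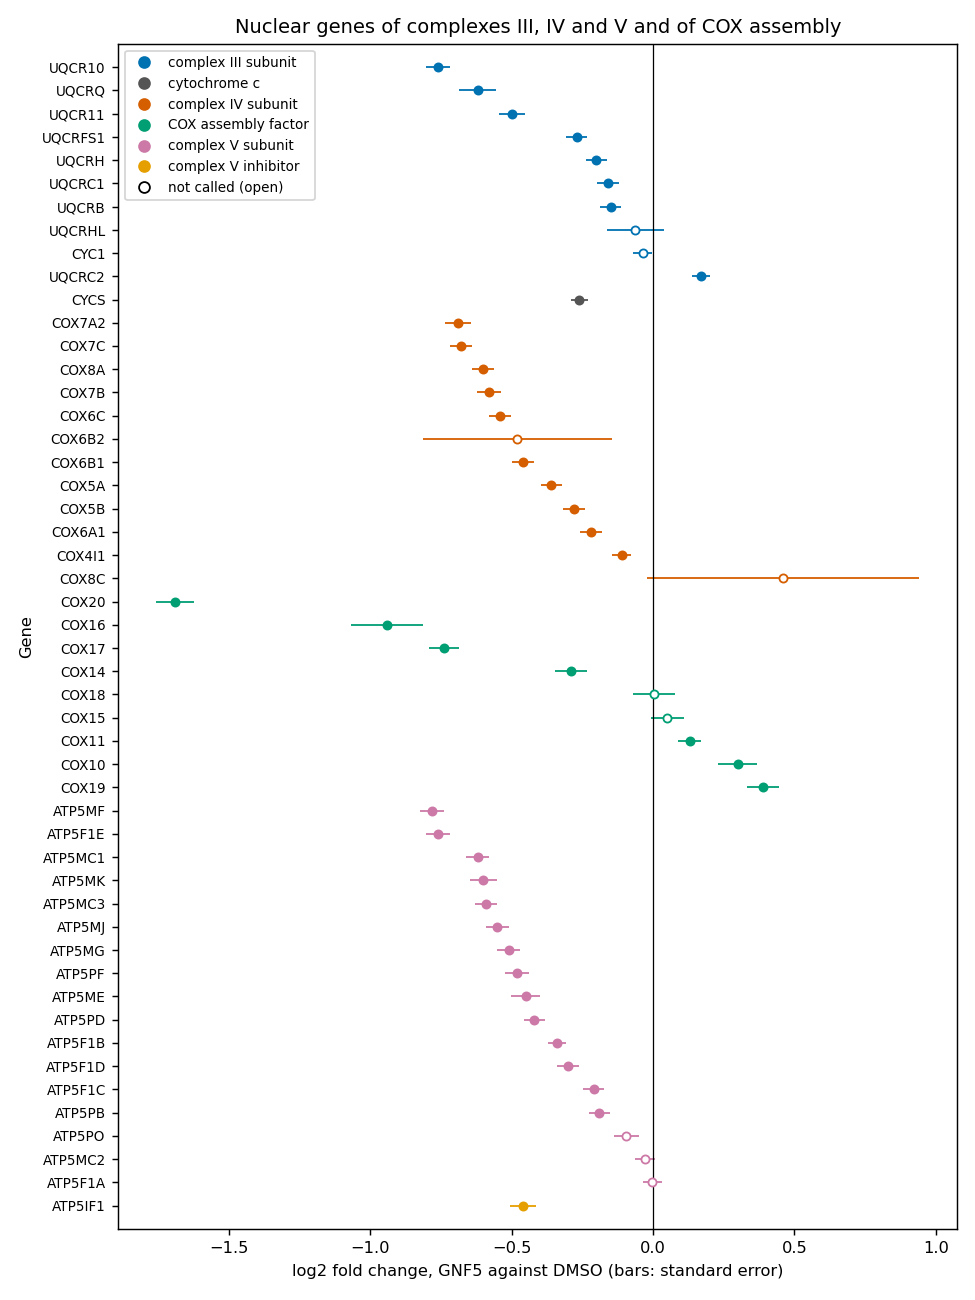
The plot gives the log2 fold change of GNF5 against DMSO on the horizontal axis for the 50 tested members, coloured by role, with standard errors as bars and open points for genes that were not called. Most subunits lie left of 0, UQCRC2 is the subunit called higher, and the COX assembly factors run from -1.69 (COX20) to 0.39 (COX19).

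Many respiratory genes carry sites for the factors NRF1 and GABP near their starts. In the RefSeq table of GRCh38.p14, 52 windows of 250 bases upstream of a start were found for 43 of the 55 members, some genes having several starts. The NRF1 letters, GCGCA, any 1 base and GCGC, searched like the others on both strands, were in 10 of these 52 windows (19.2%) and in 5.07% of all 35116 windows in the table. The GABP letters CCGGAAG were in 16 (30.8%, against 8.52%), the YY1 letters AAGATGG in 4 (7.69%, against 3.70%) and the hypoxia response letters ACGTG in 11 (21.2%, against 18.5%). The NRF1 letters were in 7 of 36 windows of members that fell, in 0 of 3 windows of members that rose and in 3 of 11 windows of members that were not called, the other 2 windows being of members not tested. The GABP letters were in 13 of 36, 1 of 3 and 2 of 11 of the same windows. Matches of this kind describe the letters only. A window with 2 NRF1 matches was also found for COX18, which was not called, and it is not printed. The 3 members that fell and had 2 NRF1 matches in a window are printed here, with those matches in capitals. They are 1 subunit of complex III, 1 subunit of complex V and 1 copper chaperone. The windows are on the minus strand of GRCh38.p14, at chr19:1605463-1605712 for UQCR11, chr4:674277-674526 for ATP5ME and chr3:119677407-119677656 for COX17, which has a second window without the letters.
UQCR11: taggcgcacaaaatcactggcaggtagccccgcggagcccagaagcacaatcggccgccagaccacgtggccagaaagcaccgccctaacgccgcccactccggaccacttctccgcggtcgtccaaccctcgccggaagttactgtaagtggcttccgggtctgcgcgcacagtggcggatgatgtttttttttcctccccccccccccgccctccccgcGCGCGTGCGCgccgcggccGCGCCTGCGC
ATP5ME: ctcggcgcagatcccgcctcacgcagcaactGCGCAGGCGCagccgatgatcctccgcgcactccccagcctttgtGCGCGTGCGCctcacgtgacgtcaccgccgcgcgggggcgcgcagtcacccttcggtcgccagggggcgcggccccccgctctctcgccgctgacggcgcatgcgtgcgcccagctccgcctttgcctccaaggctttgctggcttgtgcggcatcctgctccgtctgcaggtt
COX17: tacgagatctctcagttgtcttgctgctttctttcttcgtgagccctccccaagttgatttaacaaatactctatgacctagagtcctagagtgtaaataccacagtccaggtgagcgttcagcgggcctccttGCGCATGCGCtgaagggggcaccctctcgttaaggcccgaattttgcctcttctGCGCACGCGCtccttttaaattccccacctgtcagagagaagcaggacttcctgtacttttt

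In complex III all 5 small accessory subunits fell (median log2 fold change -0.50), and of the 4 core and redox subunits 2 fell, 1 rose and 1 was not called (median -0.10). The medians were close, -0.18 with 3 of 5 lower and -0.12 with 2 of 4 lower, in a fit that removes a trend with coding length, described at the end and called the coding-length fit here. This split, like the other subgroups below, follows the textbook place of the subunits and was drawn after the values were seen. UQCR10 (ENSG00000184076, chromosome 22, 29767369 to 29770413, GRCh38), a single-helix subunit, had 114, 105 and 112 CPM with DMSO and 61.7, 66.3 and 67.9 CPM with GNF5. All DMSO values lay above all GNF5 values, and this was the largest fall of the complex (log2 fold change -0.76 ± 0.0420, edgeR adjusted p = 3.32e-15). UQCR11 (ENSG00000127540, chromosome 19, 1597169 to 1605473), with the shortest coding sequence of the complex at 168 bases, had 67.4, 60.1 and 62.5 CPM with DMSO and 44.0, 46.0 and 44.0 CPM with GNF5 (log2 fold change -0.50 ± 0.0459). UQCRQ, which sits beside cytochrome b, fell by 0.62 ± 0.0661. UQCRH, the hinge protein at the docking site of cytochrome c, and UQCRB, which helps hold ubiquinone, fell by 0.20 and 0.15. In the coding-length fit the calls of UQCRH and UQCRB were lost, both at 0.02, and UQCR10, UQCRQ and UQCR11 stayed lower at -0.46, -0.38 and -0.18.

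Among the core subunits UQCRC2 moved the other way. UQCRC2 (ENSG00000140740, chromosome 16, 21953288 to 21983660) had 199, 191 and 197 CPM with DMSO and 225, 222 and 214 CPM with GNF5. Every GNF5 library was above every DMSO library. Among the nuclear subunits of the 3 complexes this was the one rise called with the default settings. The log2 fold change of UQCRC2 was 0.17 ± 0.0332 (edgeR adjusted p = 6.28e-05). Its partner UQCRC1 (ENSG00000010256, chromosome 3, 48599002 to 48610976) had 202, 178 and 191 CPM with DMSO and 166, 167 and 177 CPM with GNF5, a fall of 0.16 ± 0.0396. Its values did not overlap between groups, although the lowest DMSO value, 178 CPM, was close to the highest GNF5 value, 177 CPM. UQCRFS1 (ENSG00000169021, chromosome 19, 29205320 to 29213151), the Rieske iron-sulfur protein that takes the first electron from ubiquinol, had 128, 119.5 and 127 CPM with DMSO and 102, 100.5 and 108 CPM with GNF5. It fell by 0.27 ± 0.0378, and 6.79% of the counts of UQCRFS1 and its named pseudogenes together were on the pseudogenes. CYC1 (ENSG00000179091, chromosome 8, 144095039 to 144097525), the cytochrome c1 that hands the electron to cytochrome c, had 246, 224 and 230.1 CPM with DMSO and 228, 228 and 226 CPM with GNF5. The groups overlapped, and its log2 fold change was -0.04 ± 0.0349 (edgeR adjusted p = 0.377). UQCRHL, a retrocopy of UQCRH whose reads are hard to place, was at 5.78 ± 0.470 to 5.53 ± 0.197 CPM and was not called.

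CYCS, which carries electrons from complex III to complex IV and also triggers the apoptosome when it leaks into the cytosol, was among the more abundant members. It (ENSG00000172115, chromosome 7, 25118656 to 25125260) had 435, 433 and 421 CPM with DMSO and 357, 355 and 363 CPM with GNF5. The groups did not overlap, and the log2 fold change was -0.26 ± 0.0313 (edgeR adjusted p = 2.90e-08). In the coding-length fit it was -0.08 (edgeR adjusted p = 0.0263). Its 42 named pseudogenes took 0.608% of the counts of gene and pseudogenes together.

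All 10 nuclear complex IV subunits expressed above 1 CPM fell. Of 12 tested, 10 fell, 0 rose and 2 low isoforms were not called (median -0.47). The largest falls were in small single-helix subunits. COX7A2 (ENSG00000112695, chromosome 6, 75237675 to 75250323) had 211, 188 and 201 CPM with DMSO and 115, 125 and 131 CPM with GNF5, and COX7C (ENSG00000127184, chromosome 5, 86617928 to 86620962) had 237, 213 and 239 CPM with DMSO and 139.9, 144 and 145 CPM with GNF5. In each, the highest GNF5 value lay below the lowest DMSO value by more than the range of either group, with log2 fold changes of -0.69 ± 0.0450 and -0.68 ± 0.0385 (edgeR adjusted p = 5.58e-12 and 4.44e-15). COX8A (ENSG00000176340, chromosome 11, 63974620 to 63976543) had 196, 185 and 194 CPM with DMSO and 119, 127 and 133 CPM with GNF5 (log2 fold change -0.60 ± 0.0384). The gene model ENSG00000256100 covers 35.4% of its exon bases on its strand, and fragments there are left out of its count. COX7B (ENSG00000131174, chromosome X, 77899440 to 77907376) had 166, 155 and 167 CPM with DMSO and 102, 109 and 116 CPM with GNF5 (log2 fold change -0.58 ± 0.0412), and COX6C and COX6B1 fell by 0.54 and 0.46. In the coding-length fit these subunits stayed lower by less, at -0.53 (COX7A2), -0.38 (COX7C), -0.32 (COX8A), -0.33 (COX7B), -0.28 (COX6C) and -0.23 (COX6B1).

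COX4I1 had the smallest fall of these 10 subunits. COX4I1 (ENSG00000131143, chromosome 16, 85798633 to 85807068) and COX5A (ENSG00000178741, chromosome 15, 74919791 to 74938083) assemble with the mitochondrial subunit MT-CO1 early in the build. COX4I1 had 196, 184 and 189.8 CPM with DMSO and 174, 179.7 and 174 CPM with GNF5. Its groups did not overlap, but the fall was only 0.11 ± 0.0340 (edgeR adjusted p = 0.00535), and the call was lost in the coding-length fit (-0.041, edgeR adjusted p = 0.236). COX5A had 126, 121 and 124 CPM with DMSO and 93.3, 96.6 and 100.2 CPM with GNF5, a log2 fold change of -0.36 ± 0.0367. The 5 partners of MT-CO2, which are COX5B, COX6C, COX7B, COX7C and COX8A, had a median of -0.58, and the 3 partners of MT-CO3, which are COX6A1, COX6B1 and COX7A2, a median of -0.46. COX5B (ENSG00000135940, chromosome 2, 97646062 to 97648383), a zinc-binding subunit, had 109.6, 99.8 and 105 CPM with DMSO and 85.1, 84.4 and 89.5 CPM with GNF5 (log2 fold change -0.28 ± 0.0397, and -0.14 in the coding-length fit). COX6A1 fell by 0.22, and this call too was lost in the coding-length fit (-0.04). In that fit the medians of the partners of MT-CO2 and MT-CO3 were -0.32 and -0.23. These differences between subgroups were not tested.

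Isoforms of complex IV made in other tissues were near silent. COX6A2 and COX7B2, known from muscle and testis, had 0 counts in the 6 libraries, for which the limit is 0.00903 CPM (3 counts over all libraries). COX7A1, the heart and muscle isoform, had 1 count in all. COX6B2 and COX8C, known from testis, had 102 and 27 counts with DMSO and 66 and 34 with GNF5, summed over libraries, and neither was called, except COX6B2, lower, without GNF5 replicate 3. COX4I2 (ENSG00000131055, chromosome 20, 31637912 to 31645006), the isoform of COX4 that lung cells express and hypoxia induces, was low and lower still with GNF5. Its raw counts were 9, 13 and 20 with DMSO and 0, 2 and 1 with GNF5. That is 42 against 3, a ratio of 12.6 after scaling for depth (95% exact interval 4.04 to 63.7, counting error only). The expression filter left COX4I2 out of the test. Fitted without the filter it was called (log2 fold change -3.50, edgeR adjusted p = 6.42e-05), a size that depends on so few counts. It was also called when it passed the filter without DMSO replicate 1 or without any 1 of the GNF5 replicates. In those fits it passed through its DMSO counts alone, so these calls are not further support for the fall. Next to COX4I1, at 131 ± 4.28 TPM (a scaled share of counts per exon length) with DMSO, COX4I2 was at 1.19 ± 0.470 TPM.

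The COX assembly factors did not move as one. Of 9, all tested, 4 fell (44.4%) and 3 rose (33.3%), with a median log2 fold change of 0.00. Among all tested genes 30.7% fell and 31.0% rose, with a median of 0.01. COX20 (ENSG00000203667, chromosome 1, 244835616 to 244845057), a chaperone of newly made MT-CO2, had 24.7, 26.4 and 26.5 CPM with DMSO and 7.71, 8.02 and 8.32 CPM with GNF5. Each group was tight and the groups were far apart, and the fall of 3.23-fold (log2 fold change -1.69 ± 0.0661, edgeR adjusted p = 1.10e-18) was the largest of the 50 tested members. Its named pseudogenes held 6.50% of the joint counts, and adding them left the call in place. COX16 (ENSG00000133983, chromosome 14, 70325081 to 70416984), which also acts on MT-CO2, was low, at 4.37, 5.60 and 5.79 CPM with DMSO and 2.64, 2.48 and 3.11 CPM with GNF5. It fell 1.91-fold (log2 fold change -0.94 ± 0.128), but 37.8% of its exon bases lie in the readthrough SYNJ2BP-COX16 and in SYNJ2BP, where fragments are not counted. COX14, a small protein that binds new MT-CO1, fell by 0.29, a call that was lost in the coding-length fit (0.03). COX18, the insertase that moves the tail of MT-CO2 across the membrane, was at 13.2 ± 0.544 to 13.2 ± 1.17 CPM and was not called.

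Copper and heme factors were split. COX17 (ENSG00000138495, chromosome 3, 119654513 to 119677454), the chaperone that brings copper to the enzyme, had 29.4, 29.3 and 28.9 CPM with DMSO and 17.5, 17.1 and 18.0 CPM with GNF5. Every GNF5 value was below every DMSO value (log2 fold change -0.74 ± 0.0532, edgeR adjusted p = 1.00e-12), and in the coding-length fit the change was -0.44. COX19 (ENSG00000240230, chromosome 7, 898778 to 975549), a partner of COX11 in the intermembrane space, had 17.3, 18.1 and 17.6 CPM with DMSO and 23.8, 22.2 and 23.2 CPM with GNF5, a rise of 1.31-fold (log2 fold change 0.39 ± 0.0572, edgeR adjusted p = 1.05e-06) and the largest rise of the members called, at 0.61 in the coding-length fit. COX11, which inserts copper into MT-CO1, rose from 67.9 ± 1.06 to 74.5 ± 2.91 CPM (log2 fold change 0.13 ± 0.0401). COX10 (ENSG00000006695, chromosome 17, 14069490 to 14231736), which starts the conversion of heme b to heme a, had 13.7, 13.7 and 14.7 CPM with DMSO and 18.8, 16.7 and 16.1 CPM with GNF5. It rose by 0.30 ± 0.0694, and its GNF5 values spread more than its DMSO values without meeting them. COX15 (ENSG00000014919, chromosome 10, 99710868 to 99732127), which completes heme a, had 20.5, 21.5 and 19.3 CPM with DMSO and 20.8, 21.6 and 21.1 CPM with GNF5, groups that overlapped, and was not called (log2 fold change 0.05 ± 0.0581). In COX15 20.7% of the exon bases are shared with the gene model ENSG00000285932. COX17 shares 17.6% of its exon bases with POPDC2, and COX19 shares 17.7% with ADAP1. Fragments in such shared bases are not counted.

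**Figure D2:**
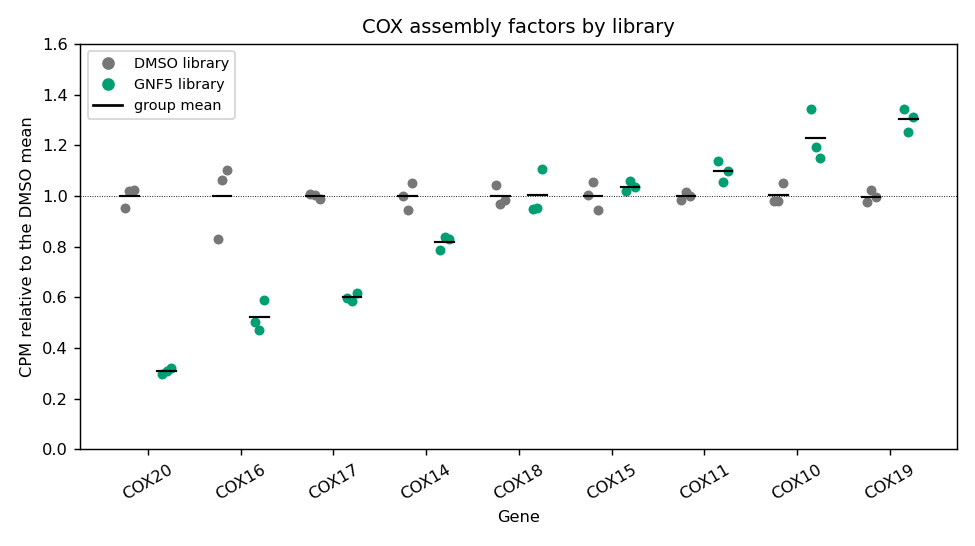
For each of the 9 COX assembly factors, the points give the CPM of every library divided by the mean of the DMSO libraries on a linear axis from 0, and the lines are group means. COX20, COX16, COX17 and COX14 lie below their DMSO libraries, COX18 and COX15 overlap them, and COX11, COX10 and COX19 lie above.

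In complex V no nuclear gene was called higher, except ATP5MC2 in the coding-length fit (0.087). Of 18 genes tested, 15 fell and 0 rose (median -0.45). In the catalytic head ATP5F1B (ENSG00000110955, chromosome 12, 56638175 to 56645984), the beta subunit that makes ATP, was the most abundant member by counts, at 1165, 1089.9 and 1126 CPM with DMSO and 885, 888 and 891 CPM with GNF5. Its GNF5 libraries were nearly equal and all below DMSO (log2 fold change -0.34 ± 0.0327, edgeR adjusted p = 3.54e-10). Its partner in the same ring, the alpha subunit ATP5F1A (ENSG00000152234, chromosome 18, 46080248 to 46104334), had 824, 770.4 and 806 CPM with DMSO and 805, 806 and 787 CPM with GNF5. The groups overlapped, and the log2 fold change was smaller than its SE of 0.0329 (edgeR adjusted p = 0.969). In the stalk that turns inside the head, ATP5F1C and ATP5F1D, the gamma and delta subunits, fell by 0.21 and 0.30. ATP5F1E (ENSG00000124172, chromosome 20, 59025475 to 59032345), the tiny epsilon subunit, had 206, 189 and 205 CPM with DMSO and 113, 113 and 128 CPM with GNF5, with groups far apart (log2 fold change -0.76 ± 0.0436, edgeR adjusted p = 1.24e-13), and -0.43 in the coding-length fit.

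In the membrane part, all 5 small accessory subunits fell, by 0.45 (ATP5ME), 0.51 (ATP5MG), 0.55 (ATP5MJ), 0.60 (ATP5MK) and 0.78 (ATP5MF) on the log2 scale. In the coding-length fit all 5 stayed lower, at -0.17, -0.32, -0.24, -0.28 and -0.56 in the same order, and their median went from -0.55 to -0.28. ATP5MF (ENSG00000241468, chromosome 7, 99448475 to 99466186), subunit f, had 122, 114 and 119 CPM with DMSO and 63.9, 72.2 and 70.6 CPM with GNF5, the largest fall of complex V (log2 fold change -0.78 ± 0.0425, edgeR adjusted p = 1.80e-15). Of its exon bases 8.64% are shared with the readthrough ATP5MF-PTCD1 and with PTCD1. In the outer stalk that holds the head still, ATP5PD, ATP5PF and ATP5PB fell by 0.42, 0.48 and 0.19, and ATP5PO, the subunit that ties the stalk to the head, was not called (-0.09 ± 0.0449, edgeR adjusted p = 0.0716). ATP5PF was at -0.30 in the coding-length fit. ATP5PO was called lower with upper-quartile factors, with the stricter filter and without DMSO replicate 2 or GNF5 replicate 2. ATP5IF1 (ENSG00000130770, chromosome 1, 28236109 to 28246906), which blocks the enzyme from running backwards and burning ATP, had 52.8, 49.8 and 52.3 CPM with DMSO and 37.1, 36.4 and 39.4 CPM with GNF5 and fell with the subunits (log2 fold change -0.46 ± 0.0458, edgeR adjusted p = 1.01e-09), at -0.27 in the coding-length fit. ATP5MGL, a copy of ATP5MG, had 29 counts in all with DMSO and 16 with GNF5 and was not tested.

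Subunit c, the proton-carrying piece of the rotor, is made from any of ATP5MC1, ATP5MC2 and ATP5MC3, whose imported proteins are trimmed to the same mature peptide. ATP5MC1 (ENSG00000159199, chromosome 17, 48892765 to 48895871) had 129, 122 and 127 CPM with DMSO and 77.3, 84.8 and 84.9 CPM with GNF5, and ATP5MC3 (ENSG00000154518, chromosome 2, 175176258 to 175184607) had 119, 114 and 122 CPM with DMSO and 75.5, 77.9 and 82.9 CPM with GNF5. Both fell without overlap (log2 fold changes -0.62 ± 0.0399 and -0.59 ± 0.0395, edgeR adjusted p = 9.84e-14 and 2.38e-13). ATP5MC2 (ENSG00000135390, chromosome 12, 53632726 to 53677408) had 107, 104 and 104 CPM with DMSO and 105, 99.4 and 104 CPM with GNF5, with overlapping groups, and was not called (-0.03 ± 0.0365, edgeR adjusted p = 0.523). In TPM the genes together made 313, 298 and 307 in the DMSO libraries and 227, 229 and 235 in the GNF5 libraries. Within that sum ATP5MC2 held 29.1%, 29.5% and 28.6% with DMSO and 39.9%, 36.7% and 37.4% with GNF5. The share of ATP5MC1 went from 52.1% ± 0.266 to 45.3% ± 1.55 (SD, n = 3) and that of ATP5MC3 from 18.8% ± 0.319 to 16.7% ± 0.363. Without division by exon length the shares were 36.1% (ATP5MC1), 30.1% (ATP5MC2) and 33.8% (ATP5MC3) with DMSO. With GNF5 they were 31.2%, 39.0% and 29.8% in the same order. The levels of the genes relative to each other thus depend on the exon lengths used. In either form the 3 shares are bound to sum to the whole, so they are given without a test.

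**Figure D3:**
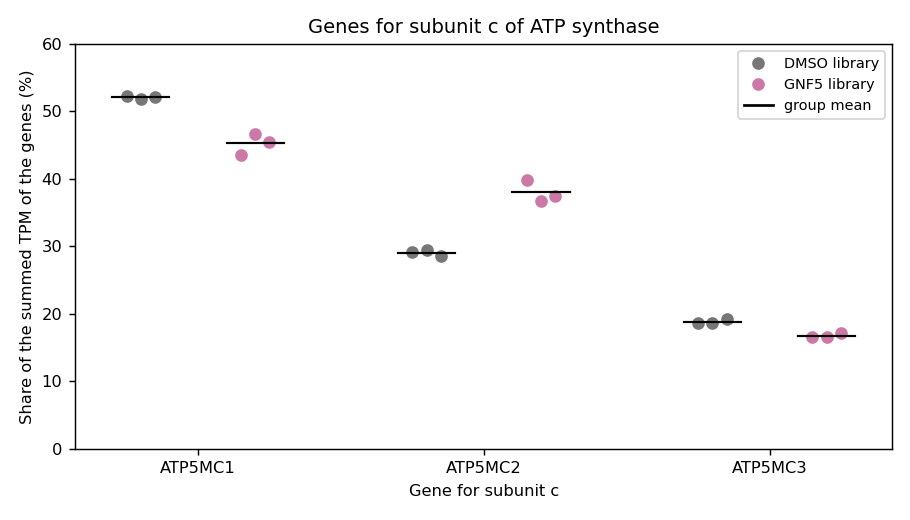
Each point is the share, in percent, that 1 gene for subunit c takes of the summed TPM of ATP5MC1, ATP5MC2 and ATP5MC3 in 1 library, and the lines are group means. The GNF5 libraries lie above the DMSO libraries for ATP5MC2 and below them for ATP5MC1 and ATP5MC3.

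Per exon length with DMSO, ATP5F1B (1665 ± 57.3 TPM) and COX8A (1281 ± 41.4 TPM) were the highest members, followed by COX6A1 (581 ± 39.5 TPM). The next were COX6B1 (415 ± 7.99 TPM), CYC1 (393 ± 20.1 TPM) and COX7C (385 ± 23.2 TPM), whose ranges of mean ± SD overlap. The assembly factors were lower, from 6.26 ± 0.276 TPM (COX18) to 82.0 ± 3.86 TPM (COX14). Exon length here is the union of every annotated transcript, which is far longer than the usual mRNA for genes such as UQCRB and ATP5F1A, so such levels are understated.

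Most mitochondrially encoded partners did not fall with the nuclear genes of complexes IV and V. Of the 6 mitochondrial genes of complexes III, IV and V, 4 rose, 1 fell and 1 was not called, with a median of 0.22. MT-CO1 and MT-CO2, which hold the heme and copper centres of complex IV, rose by 0.60 ± 0.0373 and 0.52 ± 0.0398, whereas MT-CO3 fell by 0.32 ± 0.0415. MT-ATP6, the proton channel of complex V, rose by 0.30, and MT-ATP8 by 0.14. MT-CYB was not called (log2 fold change -0.06 ± 0.0816). Summed over complex IV, nuclear subunits had 1812, 1669 and 1768 CPM with DMSO and 1232, 1291 and 1328 CPM with GNF5, and mitochondrial subunits 20864, 21328 and 22012 CPM and 26645, 29008 and 27146 CPM. For every 100 mitochondrial counts of complex IV there were 8.18 ± 0.449 nuclear counts with DMSO and 4.66 ± 0.222 with GNF5 (SD, n = 3). For complex V the same ratio was 72.3 ± 4.62 and 49.4 ± 2.03, and for complex III, where the groups overlapped, 36.5 ± 2.67 and 33.6 ± 4.04. All genes of mitochondrial DNA together took 7.23% ± 0.281 of the counts with DMSO and 8.27% ± 0.391 with GNF5. Copies of mitochondrial DNA in the nucleus can take part of these reads.

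**Figure D4:**
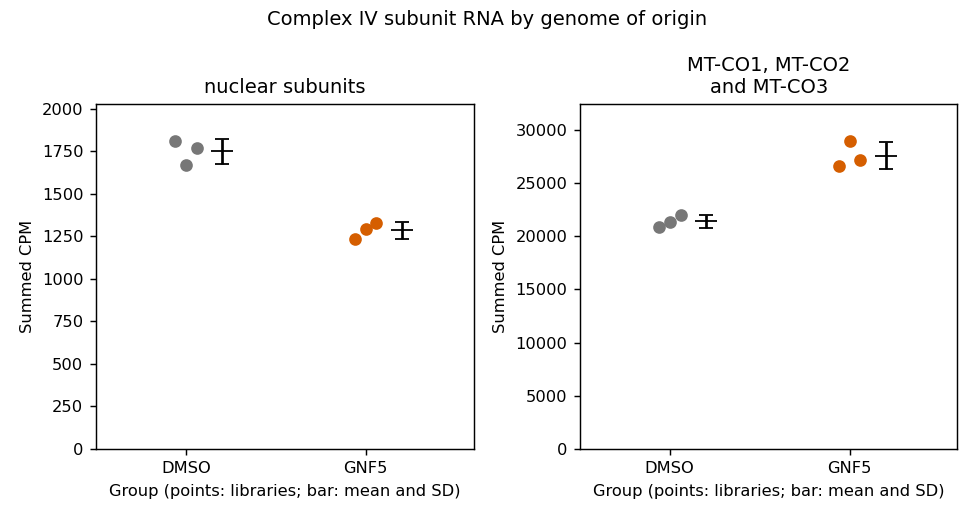
Points are the summed CPM of complex IV subunits in each library, nuclear genes on the left and MT-CO1, MT-CO2 and MT-CO3 on the right, with the mean and SD of each group beside them on axes that start at 0. Nuclear RNA is lower in every GNF5 library (1232 to 1328 CPM) than in every DMSO library (1669 to 1812 CPM), and mitochondrial RNA is higher.

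Helpers of assembly outside the members were mixed. The shares called in the complex III, IV and V lists (66.7%, 63.6% and 66.7%) were near the 61.6% of all tested genes. Of 9 complex III assembly genes 4 rose and 2 fell, and in the coding-length fit 5 were higher and 0 lower. UQCC2, needed for cytochrome b, rose from 62.4 ± 1.38 to 82.7 ± 3.61 CPM, LYRM7, a chaperone of the Rieske protein, from 92.7 ± 2.73 to 117 ± 3.69 CPM, and UQCC6 by 0.18, while UQCC3 fell by 0.22, a call lost in the coding-length fit (-0.0061). Of 22 complex IV helpers and associated subunits 10 fell and 4 rose, but in the coding-length fit 6 were lower and 8 higher. NDUFA4, a late-joining subunit of complex IV, fell from 264 ± 11.4 to 193 ± 3.23 CPM, and CMC2 and TIMM21 fell by 0.53 and 0.39. COX7A2L, which links complexes III and IV into a supercomplex, rose from 43.5 ± 0.436 to 61.3 ± 3.16 CPM, against the fall of its relative COX7A2. Of 6 complex V assembly genes 3 fell and 1 rose, with TMEM70, ATPAF1 and FMC1 lower by 0.29, 0.29 and 0.41 and DMAC2L higher by 0.18.

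Of 12 transcription factors and coactivators of respiratory genes, 6 rose and 2 fell, a share called (66.7%) near the 61.6% of all tested genes. PPARGC1A, the coactivator PGC-1alpha known for raising mitochondrial genes, had 10.0, 10.8 and 8.73 CPM with DMSO and 31.3, 28.7 and 29.4 CPM with GNF5, a rise of 3.03-fold (edgeR adjusted p = 9.22e-18). Its relative PPRC1 and its partner ESRRA rose by 0.68 and 0.50, and CREB1 by 0.23. NRF1 itself was not called (log2 fold change 0.05 ± 0.0521), and GABPA fell by 0.20. Of 8 listed genes known to respond to oxygen, not all of them respiratory, 6 fell (75.0%) and 2 rose (25.0%). Among all tested genes these shares were 30.7% and 31.0%. NDUFA4L2, a hypoxia-induced relative of NDUFA4, fell from 20.9 ± 1.58 to 4.85 ± 0.255 CPM, and BNIP3 and PDK1 fell by 1.82 and 1.10. LONP1, the matrix protease known to degrade COX4I1 in hypoxia, rose from 318 ± 5.71 to 507 ± 9.95 CPM.

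Falls were largest in members with short coding sequences. Coding length, taken from GENCODE 29 without the stop codon, ran among tested members from 153 bases (ATP5F1E) to 1659 bases (ATP5F1A). Of 35 tested members under 500 bases, 30 fell and 1 rose (median -0.50), and of 15 longer ones 7 fell and 3 rose (median -0.09). Spearman's rho between coding length and log2 fold change was 0.69 over the 39 subunits and cytochrome c with a mean log2 CPM of at least 1, and 0.37 over the 9 assembly factors. These points share the same 6 libraries, and rho describes them only. Other genes moved the same way with length: of 1282 tested genes under 500 bases that are not members, 46.3% fell and 25.0% rose (median -0.16), and of 13119 longer ones 32.8% fell and 37.4% rose (median 0.03). Over all 14451 tested genes with a coding length rho was 0.08. A further fit, added after this was seen, removes a smooth trend of counts with coding length from each library. In it 32 of the 50 tested members were lower and 5 higher. Of the 14451 genes with a coding length, 5140 were lower and 5145 higher in that fit. The median was -0.23 for the members and 0.00 for the 14451 genes. There 36 of the 41 called members kept their call, the lost ones being COX14, UQCRB, UQCRH, COX4I1 and COX6A1, and ATP5MC2 was called higher (0.087, edgeR adjusted p = 0.0269). The medians in that fit were -0.12 for complex III, -0.26 for complex IV, -0.28 for complex V with its inhibitor and 0.03 for the COX assembly factors.

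**Figure D5:**
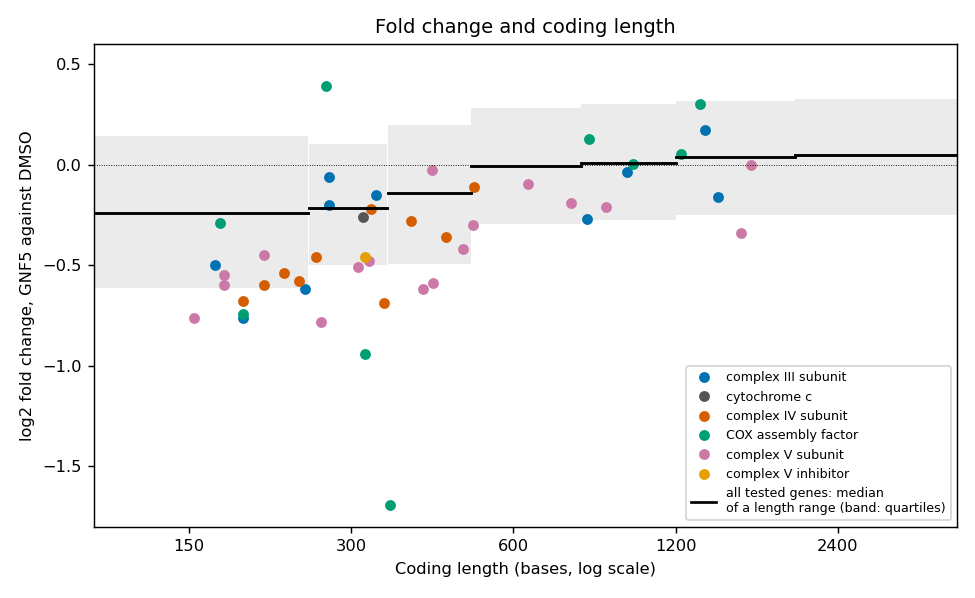
Each point is a tested member with a mean log2 CPM of at least 1, at its coding length (log axis) and log2 fold change, coloured by role. Black lines are the median and grey bands the quartiles of all tested genes in ranges of coding length, from -0.241 at up to 250 bases to 0.047 above 2000 bases, and most short members lie below them.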

How the data were processed

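RNA libraries of 6 samples were analysed from deposited raw counts, to which the authors applied no normalisation. Per the file headers, featureCounts 1.6.1 counted reverse-stranded reads over exons of Ensembl 101 (GRCh38). With these settings multi-mapped reads and those overlapping several genes are left out. Tools listed without roles in the submitters' processing notes are DESeq2, HTSeq, STAR and Trim Galore, beside the build GRCh37. Symbols were given for 60401 of 60671 IDs. GNF5 and DMSO (3 libraries each, 46148701 to 60697602 counts) were compared over the whole table with edgeR 4.0.16 (R 4.3.3; robust quasi-likelihood fit, TMM, default expression filter, 20734 genes tested, Benjamini-Hochberg adjustment, threshold 0.05), which was tested on simulated data. The SE is the size of the log2 fold change divided by the square root of F. CPM values are TMM-scaled. Replicates differed beyond counting error (chi-square per degree of freedom 3.18 to 8.76). Intervals and limits cover counting error only.

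Alternatives were DESeq2 1.42.0, other size factors, filters, length offsets, pseudogene counts added to members, a replicate block, a 1.5-fold threshold and leaving out each library. Members, lists and rules were chosen with earlier results of these data known, and subgroups, motifs and the coding-length offset after values were seen. Values in every library are given for 18 members fixed by name and, in each complex and in the assembly factors, for the 3 called members with the lowest p and the largest change each way at a mean log2 CPM of at least 1. From each outside list up to 4 called genes with the lowest p are named. Other genes were named after their values were seen.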

Additional observations from a re-analysis of the deposited data

How the results depend on the processing

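All 41 calls among the members kept their direction and stayed called under DESeq2 size factors, upper-quartile factors, the DESeq2 test, both filters, the exon-length offset, added pseudogene counts and without each library in turn. Against a 1.5-fold change 8 members were lower and 0 higher. The exon-length offset moved the median over all members from -0.35 to -0.29. The coding-length offset, chosen after seeing the data, moved it to -0.23, that of complex III to -0.12, of complex IV to -0.26 and of complex V with its inhibitor to -0.28, and 36 of the 41 calls were kept. Leaving out 1 library gave 37 to 39 members lower and 4 higher, and medians of -0.38 to -0.33 (all members), -0.22 to -0.16 (complex III), -0.58 to -0.41 (complex IV), -0.07 to 0.05 (COX assembly factors) and -0.50 to -0.43 (complex V). The complex IV value of -0.58 is that without GNF5 replicate 3, where COX4I2 and COX6B2 were tested and called lower. COX4I2 passed the filter there through its DMSO counts alone. Of 780 values of 52 named genes under the alternatives, 5 changed sign, all in genes not called with every library and the default settings: ATP5F1A without the filter (9.8e-05), without DMSO replicate 1 (0.015) and without GNF5 replicate 3 (0.012; without each library -0.037 to 0.015), CYC1 with the exon-length offset (0.017) and ATP5MC2 with the coding-length offset (0.087). For these the cause was not tested. Without division by length, ATP5MC1 and ATP5MC3 moved by -4.93 and -4.03 percentage points of the subunit c sum, not by -6.80 and -2.13, and without each library the shares moved by -7.52 to -5.97 (ATP5MC1), 7.97 to 9.57 (ATP5MC2) and -2.34 to -1.95 (ATP5MC3) points. With the replicate block the counts were 37 lower and 4 higher, and the block changed no member's call. Same-numbered libraries of the groups correlated at -0.11, -0.026 and 0.0037 in their deviations, and different-numbered ones at -0.059 to 0.079. No pairing by number was seen, but with 3 libraries per group this cannot settle how they were set up. Depth limits COX4I2, COX6B2, COX8C and ATP5MGL.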
